A study of Mus musculus with 15 samples.

Results

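The genes described here encode the general splicing factors of the mouse embryonic lens: the serine/arginine-rich (SR) proteins, the heterogeneous nuclear ribonucleoproteins (hnRNPs), the Snrp proteins of the spliceosomal small nuclear ribonucleoproteins (snRNPs), and the SF3A and SF3B subunits of the U2 snRNP. Members were chosen by symbol: every gene whose symbol begins with Hnrnp or Snrp, or with Srsf, Sf3a or Sf3b and then a digit, with antisense assemblies left out. This gave 51 genes of the 14615 gene symbols in the table, namely 10 SR, 20 hnRNP, 12 Snrp and 9 SF3 genes. All 51 passed the filter on low values, since the lowest value of any member in any library was 25.2 FPKM. The filter thus removed no member, but genes that the deposited values do not list cannot be seen here.

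RNA-seq libraries came from micro-dissected lenses of wild-type C57BL/6NTac embryos taken at stages E10.5 (E, embryonic day), E12.5, E14.5 or E16.5 and, as the reference, from wild-type whole embryos of the same strain labelled E10.5-12.5 (whole body). Each of the 5 groups had 3 libraries, which the labels call biological replicates. Each E10.5 library pooled 50 lenses, each E12.5 library 29, each E14.5 library 18 and each E16.5 library 17. How embryos of several days were combined for whole body is not given in the labels. At E14.5 and E16.5 the lens was therefore older than the reference, and age and tissue cannot be told apart in those comparisons.

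Values are FPKM, fragments per transcript scaled by transcript length and library size, deposited per transcript and summed here per gene. The read depth is unknown, so no counting interval can be given. Calls are from limma on log2(FPKM + 1) over 14532 genes, with an adjusted p (Benjamini-Hochberg) under 0.05 as the threshold, and "log2 change" means a difference on that scale. The lens marker genes summed to 1128 to 1303 FPKM at E10.5 and 227732 to 284597 at E16.5, against 60.1 to 60.5 in whole body, where Cryga, Crygs and Lim2 were listed at 0. Crystallins grew to a large part of lens RNA, and the deposited FPKM totals were unequal, from 706887 to 1626262 over the libraries. As an alternative, crystallins were left out and the remaining totals were set equal, both meant below by "crystallins left out". The median log2 change of all genes then moved from -0.11 to -0.58 for E16.5 against whole body and from -0.01 to -0.39 for E16.5 against E10.5. The medians of the 51 members moved with it, from -0.55 to -1.08 and from -0.53 to -1.01, and stayed below those of all genes under either scaling.

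Splicing removes introns in the nucleus. The U1 snRNP binds the 5′ splice site and the U2 snRNP, which carries SF3A and SF3B, binds the branch point, while a ring of Sm proteins forms the core of U1, U2, U4 and U5. SR proteins and hnRNPs bind the pre-mRNA around these sites and, often with opposite effects, set which exons are used; many of their own genes also make transcripts with an early stop codon that nonsense-mediated decay (NMD) removes. In the lens, surface ectoderm forms a vesicle whose posterior cells leave the cell cycle and become fibre cells, which fill with crystallins and later lose their nuclei.

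Splicing factor transcripts fell as the lens developed. From E10.5 to E16.5, 40 of the 51 members fell, 1 rose and 10 were not called, where 36.7% of all genes tested were lower and 37.2% higher. The median log2 change was -0.53, against -0.01 over all genes. In size, 8 members were lower by at least 2-fold (18.2% of all genes) and 1 higher (17.2%). Group means were lower at each of the 3 steps between stages in 37 members and higher at each step in 2, Snrpn and Sf3b5, and 43 members had their lowest lens mean at E16.5. These patterns were not counted over all genes, so how common they are outside the members is not known here.

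As deposited, the values gave the most calls in the first interval, an order that depends on scaling. Between E10.5 and E12.5, 31 members fell and 2 rose (26% of all genes lower, 29.5% higher), the 2 being Snrpn and Srsf6. Either E10.5 replicate 2 or 3, or E12.5 replicate 2 or 3, left out reduced the 2 to 1. Between E12.5 and E14.5, 15 fell and 1, Snrpn, rose (22.4% lower, 21.2% higher). Between E14.5 and E16.5, 8 fell and 1 rose (4.03% lower, 5.97% higher); the riser was Hnrnph3, an RNA-binding protein of the hnRNP H/F group. Its log2 change was 0.48 ± 0.10 (SE; adjusted p = 0.00776), after a fall to 0.496 times its E10.5 level by E12.5. Hnrnph3 lost this call with coding transcripts alone, 0.27 ± 0.19 (SE; adjusted p = 0.49), with reference transcripts alone, and when only the compared groups were fitted. With crystallins left out, 41, 43 and 17 members fell in the 3 intervals in turn, and with quantile normalization 42, 41 and 13, so that under either the middle interval gave about as many calls as the first. All genes moved too: with crystallins left out their median log2 change was -0.10, -0.22 and -0.05 in turn. Of all genes called, 40.5%, 21.5% and 35.1% were then higher, in place of 53.1%, 48.7% and 59.7% as deposited. With quantile normalization the medians were -0.05, 0.02 and -0.02, and 46.8%, 48.4% and 46.5% of calls were higher. The percent of all genes tested that was lower under either scaling is not given here, so these member counts cannot be set against it. As deposited, the 15 became 8 without E12.5 replicate 1, 9 without E14.5 replicate 1 and 23 without E14.5 replicate 3. The 8 became 3 without E14.5 replicate 1 or E16.5 replicate 2, and 2 without E14.5 replicate 3 or E16.5 replicate 1. A moderated F test over the 4 stages called 42 of 51 members, where 77.3% of all genes were called.

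Compared with whole body, the E10.5 lens was mixed: 13 members were higher and 8 lower (24.6% and 31.2% of all genes), the 8 becoming 5 without whole-body replicate 1 and 18 with quantile normalization. The balance then shifted down, to 9 higher and 30 lower at E12.5 (32.3% and 37.1%), 6 and 33 at E14.5 (35.7% and 42.6%), and 6 and 36 at E16.5 (36.8% and 43.4%). At E16.5, 12 members were lower by at least 2-fold (26.2% of all genes) and 1 higher (18.5%). With crystallins left out, 3 members in place of 9 were higher at E12.5 and 2 in place of 6 at E14.5. Of all genes called, 35.1% and 28.8% were then higher, in place of 46.5% and 45.6%. The members higher at E16.5 as deposited were Snrpn, Srsf5, Sf3b5, Snrpd2, Snrpf and Sf3b4. With crystallins left out 1 of the 6, Snrpn, was still called higher, and with quantile normalization 2, Snrpn and Sf3b5.

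**Figure D1:**
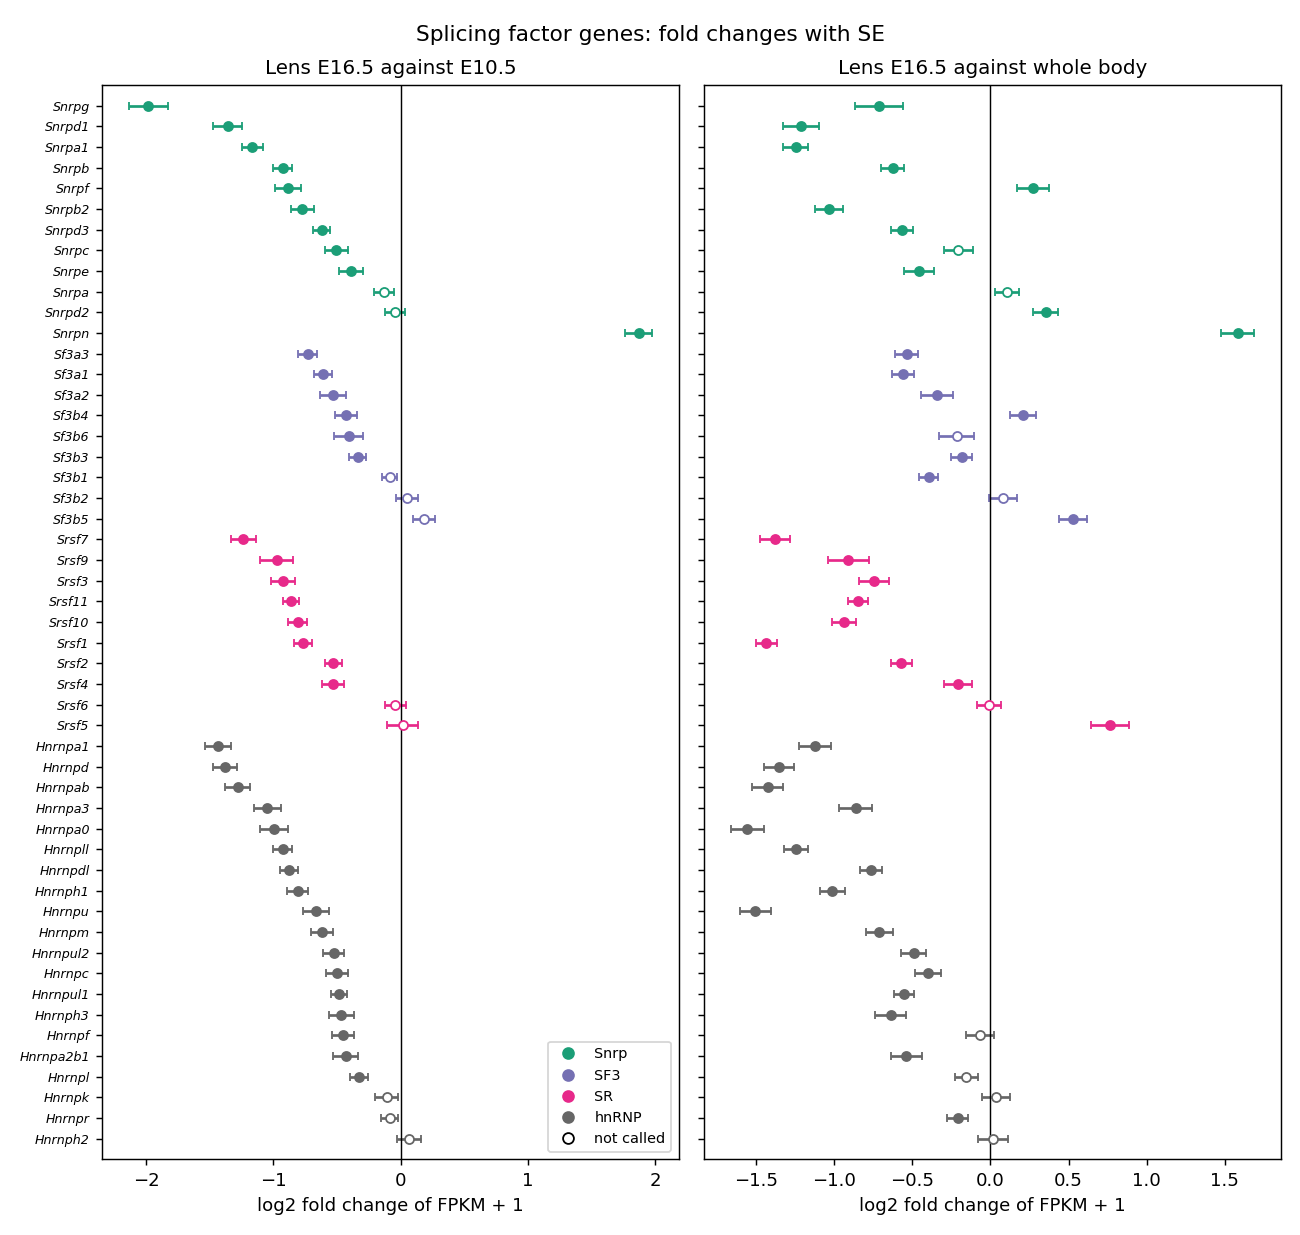
Log2 change of FPKM + 1 for all 51 splicing factor genes, grouped by family (y axis), for lens E16.5 against E10.5 (left) and against whole body (right). Bars are standard errors from limma, and open points missed the adjusted p threshold of 0.05; 40 points at left are called lower and Snrpn alone is called higher.

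The summed level of the families followed the same course. All members together summed to 16062 ± 552 FPKM in E10.5 lenses, 12862 ± 292 in E12.5, 11584 ± 844 in E14.5 and 10577 ± 347 in E16.5 lenses, while whole body held 15822 ± 695 (SD, n = 3 each). As a share of each library's FPKM this was 2.15% ± 0.04 at E10.5 and 0.692% ± 0.035 at E16.5, and 2.20% ± 0.07 in whole body. Without crystallins the E16.5 share was 1.02% ± 0.06 and the E10.5 share 2.15% ± 0.04. The hnRNP genes carried most of the sum, with 10196 ± 414 FPKM at E10.5 and 6282 ± 287 at E16.5. The SF3 sum moved least, from 1664 ± 93.0 to 1409 ± 34.6.

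**Figure D2:**
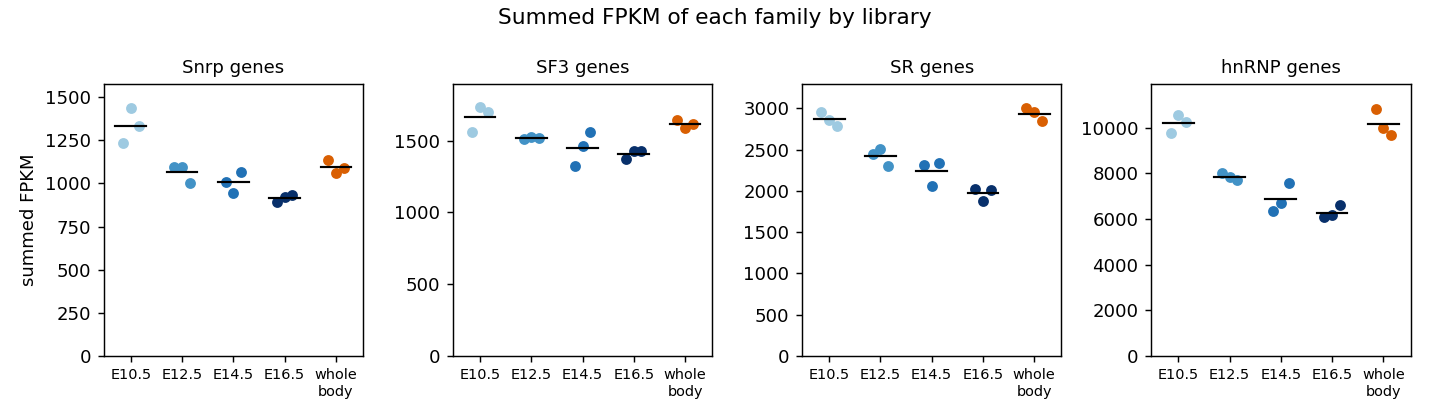
Summed FPKM (y axis, from 0) of each family in the 15 libraries (points) by group (x axis), with the group mean as a line. The hnRNP sum falls from 9758 to 10581 FPKM in the E10.5 libraries to 6078 to 6610 at E16.5, and SF3 is the flattest family.

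Genes of dividing cells moved the same way. The 10 genes of that list summed to 2284 to 2578 FPKM in the E10.5 libraries, 1165 to 1517 in E12.5, 857 to 1119.6 in E14.5 and 526 to 734 in E16.5, with 2394 to 2508 in whole body. All 10 were called lower at E16.5 than at E10.5 and than in whole body. Most markers of other cell types were also lower at E16.5 than at E10.5. Fewer were lower among neuron genes (3 of 8 lower, 1 higher), muscle genes (4 of 8 lower, 2 higher) and pigment cell genes (2 of 4 lower, 1 higher). The muscle sum rose from between 5.44 and 11.9 FPKM at E10.5 to between 24.0 and 27.1 at E16.5. Pigment cell genes summed to between 25.3 and 80.7 FPKM at E10.5 and between 31.1 and 44.4 at E16.5. Erythroid genes summed to between 2177 and 4986 FPKM at E10.5 and between 68.9 and 147 at E16.5, with 7 of 8 called lower. Macrophage genes went from 114 to 131 FPKM down to 7.1 to 15.2 (8 of 8 lower), endothelial genes from 417 to 453 down to 58.5 to 106 (5 of 6 lower, 1 higher), surface epithelium genes from 199 to 275 down to 1.68 to 2.06 (4 of 6 lower, Krt14 and Trp63 at 0 in E16.5) and neural retina genes from 283 to 359 down to 139 to 149 (4 of 6 lower, 1 higher). Of 7 periocular mesenchyme genes 6 were lower, summing to between 211 and 2062 FPKM at E10.5 and between 4.7 and 13.3 at E16.5. The seventh, Pdgfra, rose from a mean of 114 to 189 FPKM. Whole body held neuron genes at 714 to 775 FPKM and muscle genes at 546 to 584, where the highest lens library of any stage had 34.7 and 27.1. Liver genes ran from 12.9 to 878 FPKM across the E10.5 libraries and were lowest in replicate 2. The part of these cells in the splicing factor results was not tested, and in bulk RNA fewer cells of a type and less RNA per cell cannot be told apart. With replicate 2 as the only E10.5 library, an alternative chosen after seeing the data, 2 members were higher at E16.5 than E10.5 in place of 1, the second being Sf3b5, and the spread of that lone library was taken from the other groups.

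The Snrp genes include the Sm ring and the proteins specific to U1 or U2, and 9 of 12 fell from E10.5 to E16.5, 1 rose and 2 were not called. Against whole body at E16.5, 7 were lower and 3 higher. Snrpn, which encodes SmN, a close relative of SmB known from brain and expressed from the paternal allele, went against the family. In GENCODE vM21 on GRCm38 (mm10) it is ENSMUSG00000102252, chr7:59982495-60140219, minus strand. Snrpn stood at 37.7, 42.3 and 43.3 FPKM in the E10.5 libraries, 50.9, 64.5 and 74.0 in E12.5, 123, 135 and 130.5 in E14.5, 152, 164 and 143 in E16.5 and 51.2, 48.1 and 51.8 in whole body. Every later lens group lay above the one before it with no overlap, and E10.5 lay below whole body. The E16.5 mean was 3.72 times that at E10.5, a log2 change of 1.87 ± 0.11 (SE; adjusted p = 6.81e-10), and 3.04 times that of whole body, 1.58 ± 0.11 (SE; adjusted p = 2.67e-09). The rise was called from E10.5 to E12.5 (0.59) and from E12.5 to E14.5 (1.04), and not from E14.5 to E16.5 (0.24 ± 0.11 (SE; adjusted p = 0.182)).

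Snurf, an upstream reading frame of the same locus and no member by the rule, was listed at 4.90, 5.52 and 4.07 FPKM at E10.5, 10.9, 10.7 and 9.55 at E16.5 and 1.91, 1.10 and 1.89 in whole body. Snhg14, Snurf and Snrpn share 1 assembled locus, so the split of reads among them depends on the authors' assembly. Snrpb, which encodes SmB, occupies the same place in the ring as SmN. Snrpb stood at 204, 237 and 226 FPKM in the E10.5 libraries, 170.0, 164 and 145 in E12.5, 125, 120.3 and 138 in E14.5, 117, 114 and 118 in E16.5 and 182, 174 and 184 in whole body. Its E16.5 libraries lay below all others, with a log2 change of -0.93 ± 0.07 (SE; adjusted p = 2.51e-08) from E10.5 and -0.63 ± 0.07 (SE; adjusted p = 1.39e-06) from whole body. Snrpb and Snrpn thus changed places: their means were 222 and 41.1 FPKM at E10.5, and 116 and 153 at E16.5. The 2 proteins are near-identical in sequence, and how reads that fit both genes were assigned is not given in the sources used here.

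**Figure D3:**
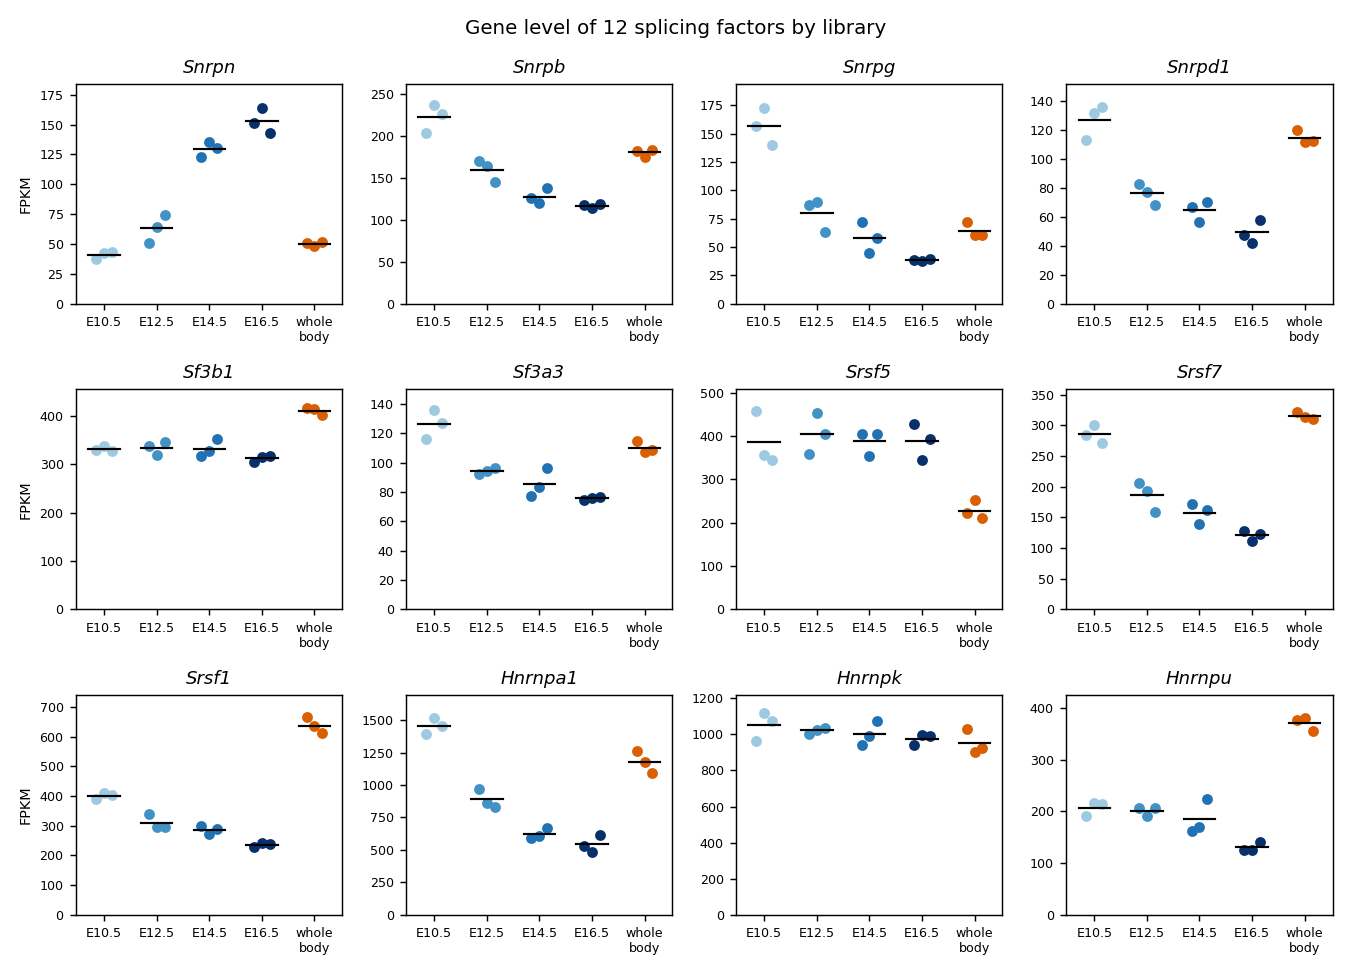
FPKM per gene (y axis, from 0, scaled per panel) of 12 splicing factors in the 15 libraries (points) by group (x axis), with the group mean as a line. Snrpn climbs from 37.7 to 43.3 FPKM at E10.5 to 143 to 164 at E16.5 while Snrpb, Snrpg, Snrpd1, Hnrnpa1 and Srsf7 descend and Sf3b1 and Hnrnpk are not called between E10.5 and E16.5.

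Snrpg (SmG) had the deepest fall of any member. Its gene is ENSMUSG00000057278, chr6:86371304-86379328, plus strand. Snrpg stood at 157, 173 and 139.6 FPKM in the E10.5 libraries, 86.9, 89.5 and 63.7 in E12.5, 72.4, 44.6 and 57.5 in E14.5, 39.0, 37.7 and 39.4 in E16.5 and 71.8, 60.7 and 60.4 in whole body. E10.5 was above every other group and E16.5 below every other group, with 0.247 times the E10.5 mean remaining at E16.5, a log2 change of -1.98 ± 0.15 (SE; adjusted p = 1.98e-08). Against whole body the change turned from 1.27 ± 0.15 (SE; adjusted p = 5.87e-06) at E10.5 to -0.71 ± 0.15 (SE; adjusted p = 0.000585) at E16.5. The table listed 4 Snrpg transcripts, and with the protein-coding one alone the E16.5 value did not differ by the test from whole body, -0.33 ± 0.19 (SE; adjusted p = 0.138), while the fall from E10.5 stayed called at -1.27 ± 0.19 (SE; adjusted p = 5.35e-05). Small genes such as this have processed copies elsewhere in the genome, so its level is uncertain.

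Snrpd1 and Snrpa1 followed. Snrpd1 (SmD1) stood at 113, 132 and 136 FPKM in the E10.5 libraries, 83.2, 77.4 and 68.4 in E12.5, 66.7, 56.8 and 70.3 in E14.5, 47.8, 42.4 and 57.9 in E16.5 and 120.4, 112 and 113 in whole body. All E16.5 libraries lay below E10.5, E12.5 and whole body and overlapped E14.5, and the log2 change was -1.36 ± 0.11 (SE; adjusted p = 4.49e-08) from E10.5 and -1.21 ± 0.11 (SE; adjusted p = 1.09e-07) from whole body. Snrpa1, which encodes the A′ protein of the U2 snRNP, stood at 78.6, 77.8 and 76.9 FPKM in the E10.5 libraries, 56.3, 55.6 and 53.4 in E12.5, 37.7, 35.1 and 44.8 in E14.5, 31.1, 34.7 and 36.8 in E16.5 and 84.8, 80.1 and 82.3 in whole body. All E14.5 and E16.5 libraries lay below E12.5, which lay below E10.5, giving -1.17 ± 0.08 (SE; adjusted p = 7.25e-09) from E10.5 and -1.25 ± 0.08 (SE; adjusted p = 2.20e-09) from whole body.

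Other Sm genes held closer to their starting level. Snrpe (SmE) stood at 85.9, 92.2 and 84.7 FPKM in the E10.5 libraries, 89.5, 76.8 and 74.0 in E12.5, 94.7, 70.9 and 78.3 in E14.5, 63.4, 71.8 and 65.2 in E16.5 and 94.5, 90.6 and 90.8 in whole body. Its E16.5 libraries lay below those of E10.5 and whole body, with log2 changes of -0.39 ± 0.10 (SE; adjusted p = 0.002) and -0.46 ± 0.10 (SE; adjusted p = 0.000463). Snrpd2 (SmD2) stood at 102.1, 129.9 and 113 FPKM in the E10.5 libraries, 109, 111 and 103 in E12.5, 121, 116 and 129 in E14.5, 107, 113 and 113 in E16.5 and 88.9, 81.7 and 90.0 in whole body. The lens groups overlapped at E10.5 and E16.5 and were all above whole body; the log2 change was -0.04 ± 0.08 (SE; adjusted p = 0.658) between those stages and 0.35 ± 0.08 (SE; adjusted p = 0.000735) against whole body, the latter turning to -0.17 with crystallins left out. Snrpa, which encodes the A protein of the U1 snRNP, stood at 104, 122 and 108 FPKM in the E10.5 libraries, 113, 126 and 113 in E12.5, 92.1, 101 and 114 in E14.5, 99.0, 103 and 103 in E16.5 and 96.8, 92.8 and 93.5 in whole body. The E16.5 libraries lay below all E10.5 and above all whole-body libraries, but by little, and the test called neither E16.5 against E10.5, -0.13 ± 0.08 (SE; adjusted p = 0.149), nor E16.5 against whole body, 0.11 ± 0.08 (SE; adjusted p = 0.23).

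The remaining 4 Snrp genes ran between 33.8 and 172 FPKM over all libraries and all fell from E10.5 to E16.5, with log2 changes of -0.88 to -0.50. They were Snrpb2 (the B″ protein of U2), Snrpc (the C protein of U1), Snrpd3 (SmD3) and Snrpf (SmF). Against whole body at E16.5 Snrpb2 and Snrpd3 were lower, Snrpf was higher at 0.27 ± 0.10 (SE; adjusted p = 0.0262) and Snrpc was not called at -0.21 ± 0.09 (SE; adjusted p = 0.0504). Snrpf had been 2.26 times whole body at E10.5, so it was nearer to whole body at E16.5 than at E10.5. That excess missed the threshold without E16.5 replicate 3 (adjusted p = 0.119), whole-body replicate 2 (adjusted p = 0.102) or whole-body replicate 3 (adjusted p = 0.067), and turned to -0.25 with crystallins left out.

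SF3A and SF3B hold the U2 snRNP at the branch point. Of their 9 genes, 6 fell from E10.5 to E16.5 and 3 were not called. Sf3b1, the largest SF3B subunit and the one that clasps the branch point helix, stood at 328, 337 and 328 FPKM in the E10.5 libraries, 337, 318 and 345 in E12.5, 316, 327 and 352 in E14.5, 304, 315 and 317 in E16.5 and 416, 414 and 402 in whole body. All lens libraries lay below whole body, and the E16.5 libraries below E10.5 by a margin that the test did not call; the log2 change was -0.09 ± 0.06 (SE; adjusted p = 0.202) from E10.5 and -0.40 ± 0.06 (SE; adjusted p = 1.74e-05) against whole body. Sf3b2, its partner in SF3B, stood at 355, 415 and 399.6 FPKM in the E10.5 libraries, 364, 386 and 373 in E12.5, 327, 399.6 and 416 in E14.5, 389, 416 and 402 in E16.5 and 384, 365 and 392 in whole body. Its groups overlapped except that E16.5 lay above E12.5, with a log2 change of 0.05 ± 0.09 (SE; adjusted p = 0.634) from E10.5. Sf3b5, the smallest core subunit, stood at 49.1, 48.5 and 59.3 FPKM in the E10.5 libraries, 54.1, 56.4 and 51.6 in E12.5, 54.3, 51.7 and 62.3 in E14.5, 57.6, 58.0 and 62.4 in E16.5 and 43.2, 37.6 and 41.5 in whole body. Its lens libraries were all above whole body, with 0.53 ± 0.09 (SE; adjusted p = 6.38e-05) at E16.5, while the difference from E10.5, 0.18 ± 0.09 (SE; adjusted p = 0.0774), was not called. Without E10.5 replicate 3 it was called (adjusted p = 0.0121).

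The genes of all 3 SF3A subunits fell. Sf3a1 stood at 192, 220.2 and 209 FPKM in the E10.5 libraries, 172, 159 and 169 in E12.5, 128, 149.9 and 154 in E14.5, 129.6, 138 and 138 in E16.5 and 202, 195 and 201 in whole body. E10.5 and whole body overlapped and both were above E14.5 and E16.5, with log2 changes at E16.5 of -0.61 ± 0.07 (SE; adjusted p = 2.11e-06) and -0.56 ± 0.07 (SE; adjusted p = 4.11e-06). Sf3a2 stood at 82.7, 90.4 and 92.3 FPKM in the E10.5 libraries, 72.0, 82.0 and 66.6 in E12.5, 52.3, 64.8 and 73.8 in E14.5, 60.6, 62.0 and 60.3 in E16.5 and 79.5, 74.6 and 78.8 in whole body. Its E16.5 libraries lay below E10.5 and whole body, with log2 changes of -0.53 ± 0.10 (SE; adjusted p = 0.000287) and -0.34 ± 0.10 (SE; adjusted p = 0.00672). Sf3a3 stood at 116, 136 and 127 FPKM in the E10.5 libraries, 92.0, 94.6 and 96.2 in E12.5, 77.5, 83.4 and 96.2 in E14.5, 74.4, 75.7 and 76.7 in E16.5 and 115, 107 and 108 in whole body. The 3 E10.5 libraries were above whole body, 0.19 ± 0.08 (SE; adjusted p = 0.044), and the 3 E16.5 libraries below it, -0.54 ± 0.08 (SE; adjusted p = 1.04e-05).

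Sf3b4, an SF3B subunit that touches the RNA upstream of the branch point, stood at 84.3, 87.0 and 92.6 FPKM in the E10.5 libraries, 74.7, 87.6 and 70.6 in E12.5, 68.0, 70.7 and 77.1 in E14.5, 63.6, 64.4 and 67.2 in E16.5 and 61.1, 52.2 and 55.7 in whole body. E16.5 lay below E10.5, -0.43 ± 0.08 (SE; adjusted p = 0.000268), and above whole body, 0.21 ± 0.08 (SE; adjusted p = 0.0324). The excess over whole body missed the threshold without E16.5 replicate 2 or 3 or without whole-body replicate 2 or 3 (adjusted p from 0.0564 to 0.137), and turned to -0.31 with crystallins left out. The other 2, Sf3b3 and Sf3b6, ran from 51.7 to 324 FPKM and both fell from E10.5, by 0.34 and 0.41 on the log2 scale. With all transcripts summed, Sf3b3 was lower than whole body, -0.18 ± 0.07 (SE; adjusted p = 0.0228), and higher with reference transcripts alone (0.24, adjusted p = 0.0474), so its direction there depends on which transcripts are summed.

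SR proteins bind exonic enhancers through RNA recognition motifs and recruit the spliceosome through their arginine-serine tails. Of 10 genes, 8 fell from E10.5 to E16.5 and 2, Srsf5 and Srsf6, were not called. Against whole body at E16.5 8 were lower, 1 was higher and 1 was not called. Srsf1, the founding SR protein, stood at 391, 409 and 403 FPKM in the E10.5 libraries, 339.7, 297 and 296 in E12.5, 298, 272 and 289.7 in E14.5, 227, 240.4 and 239 in E16.5 and 665, 636 and 613 in whole body. Every lens library lay below every whole-body library, and E16.5 below all other stages, with -0.77 ± 0.07 (SE; adjusted p = 8.26e-08) from E10.5 and -1.43 ± 0.07 (SE; adjusted p = 5.24e-11) from whole body. Srsf7 stood at 284, 301 and 270.4 FPKM in the E10.5 libraries, 205, 193 and 159 in E12.5, 171, 138 and 162 in E14.5, 127, 112 and 123 in E16.5 and 322, 314 and 310.1 in whole body. It had the deepest fall of the SR genes from E10.5, -1.23 ± 0.10 (SE; adjusted p = 1.93e-08), and E16.5 was 0.383 times whole body.

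Srsf3, the smallest SR protein, which also couples splicing to mRNA export, stood at 401, 431 and 432 FPKM in the E10.5 libraries, 332, 297 and 277 in E12.5, 303, 244 and 279.6 in E14.5, 231, 197 and 238 in E16.5 and 392, 369 and 354 in whole body. E10.5 was above whole body without a call, 0.18 ± 0.10 (SE; adjusted p = 0.122), and E16.5 was below both, -0.93 ± 0.10 (SE; adjusted p = 4.42e-07) from E10.5 and -0.74 ± 0.10 (SE; adjusted p = 3.60e-06) from whole body. Srsf9 stood at 69.2, 88.8 and 83.8 FPKM in the E10.5 libraries, 62.1, 57.3 and 54.2 in E12.5, 38.9, 39.7 and 50.0 in E14.5, 37.4, 35.4 and 49.7 in E16.5 and 82.2, 71.2 and 77.2 in whole body. E16.5 replicate 3 was near the highest E14.5 library, and the other E16.5 libraries were lowest; the log2 change was -0.97 ± 0.13 (SE; adjusted p = 7.26e-06) from E10.5. Srsf2, a regulator that binds both C-rich and G-rich enhancers, stood at 392, 393 and 397 FPKM in the E10.5 libraries, 310.1, 334 and 293 in E12.5, 302, 283 and 325 in E14.5, 275, 273 and 269.6 in E16.5 and 419, 389.8 and 408 in whole body. E10.5 and whole body overlapped, and each later stage lay below them, with -0.53 ± 0.07 (SE; adjusted p = 3.50e-06) from E10.5.

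Srsf4 was the lowest member in every group. Srsf4 stood at 37.0, 40.0 and 40.5 FPKM in the E10.5 libraries, 33.8, 31.3 and 30.4 in E12.5, 25.2, 28.1 and 31.6 in E14.5, 27.4, 26.7 and 26.3 in E16.5 and 32.9, 28.5 and 32.1 in whole body. E10.5 was above whole body, 0.32 ± 0.09 (SE; adjusted p = 0.0066), and E16.5 below it, -0.21 ± 0.09 (SE; adjusted p = 0.0407); the second call was lost without any 1 library of either group except whole-body replicate 2 (adjusted p from 0.0598 to 0.136). Srsf10 and Srsf11 ran from 111 to 232 FPKM and fell by 0.81 and 0.86 on the log2 scale from E10.5.

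Srsf5 was the SR gene that the lens held above whole body. Srsf5 stood at 458, 356 and 344 FPKM in the E10.5 libraries, 358, 453 and 406 in E12.5, 405, 353 and 405 in E14.5, 428, 345 and 392 in E16.5 and 221, 252 and 209.7 in whole body. All 12 lens libraries lay above the 3 whole-body libraries and overlapped each other, with 0.77 ± 0.12 (SE; adjusted p = 3.46e-05) at E16.5 and 0.02 ± 0.12 (SE; adjusted p = 0.913) from E10.5 to E16.5. With its protein-coding transcripts alone it remained higher than whole body, 0.68 ± 0.09 (SE; adjusted p = 1.91e-05), and fell from E10.5, -0.35 ± 0.09 (SE; adjusted p = 0.00462). With crystallins left out the excess over whole body was not called (adjusted p = 0.129), nor with quantile normalization (adjusted p = 0.357). Srsf6 stood at 491, 427 and 421 FPKM in the E10.5 libraries, 491, 547 and 498 in E12.5, 486, 454 and 535 in E14.5, 445, 427 and 427 in E16.5 and 431, 446 and 431 in whole body. Its lens groups overlapped whole body at E10.5 and E16.5, with -0.01 ± 0.08 (SE; adjusted p = 0.92) at E16.5, but its transcripts were divided differently, as described next.

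Transcript classes were examined after the gene values and after the shares of every class had been looked at, and the NMD class was chosen to lead because it differed; what follows describes that pattern and does not test it afresh. The 51 genes had 277 transcripts in the table: 121 annotated in GENCODE vM21 as protein coding, 48 as retained intron, 22 as processed transcript, 22 as NMD targets, 63 assembled transcripts with an unannotated junction, and 1 of another class. NMD transcripts were listed for 17 members, of which 16 reached a mean share of 1% of the gene's FPKM. The share is within a gene, so scaling of libraries cancels. It rests on the authors' estimate of how reads divide among overlapping transcripts.

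The SR genes Srsf6, Srsf3, Srsf1 and Srsf2 and the hnRNP gene Hnrnpdl gave a larger share of their RNA as NMD transcripts in the lens than in whole body at every stage. At E10.5, 6 of 16 members had a higher and 3 a lower share (14.9% and 5.76% of 1059 genes tested). The counts were 6 and 2 at E12.5 (8.4% and 5.57%), 6 and 2 at E14.5 (8.59% and 8.78%), and 7 and 2 at E16.5 (12.7% and 8.97%). At E12.5 the 6 became 4 to 5 in every fit without 1 of the compared libraries. Between lens stages limma called 0 of 16 members (from E10.5 to E16.5, 1.7% of all genes were higher and 4.63% lower, and from E10.5 to E12.5 0% and 1.42%). At an unadjusted p under 0.05, 2 members were higher and 1 lower from E10.5 to E16.5, and on a logit scale the adjusted count was also 0. The higher were Hnrnpdl (26.2 to 35.0%, limma adjusted p = 0.0741) and Hnrnph3 (8.39 to 15.6%, adjusted p = 0.0913). The lower was Srsf1 (18.2 to 11.6%, adjusted p = 0.0589). In simulated shares for E16.5 against whole body, 18 to 52% of shifts of 0.2 on the arcsine scale were recovered. The 0 therefore does not show that shares were constant. Over all genes tested the share at E10.5 was also more often higher than lower.

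Where the frame ends in these transcripts is shown next, because the genes differ in how their NMD transcripts are built. Each line gives the end of the open reading frame in the exon holding its stop codon, 5′ to 3′, read from GENCODE vM21 transcripts on GRCm38, with the stop codon in capitals.
Srsf3 ENSMUST00000037776, chr17:29039454-29039487, plus strand: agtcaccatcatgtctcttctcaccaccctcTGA
Srsf6 ENSMUST00000017065, chr2:162932907-162932966, plus strand: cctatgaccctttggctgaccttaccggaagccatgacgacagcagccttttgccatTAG
Srsf4 ENSMUST00000134943, chr4:131884331-131884390, plus strand: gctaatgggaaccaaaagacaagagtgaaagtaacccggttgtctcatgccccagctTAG
Srsf2 ENSMUST00000136914, chr11:116852028-116852087, minus strand: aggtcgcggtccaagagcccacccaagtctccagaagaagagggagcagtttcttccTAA

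In Srsf3 the frame reads 31 bases into an exon of 456 bases (chr17:29039454-29039909) that the main coding transcript lacks, and stops at TGA 548 bases before the last exon junction. In Srsf6 it stops at TAG inside an exon of 268 bases (chr2:162932815-162933082), absent from the coding transcript of highest level, 534 bases before the last junction; another transcript annotated as coding uses the same stop. In Srsf4 the stop lies in the first exon of a model whose start is incomplete, an exon that no annotated coding transcript uses. Srsf2 is built differently: its NMD transcripts keep the stop of the coding transcript, TAA, and have junctions after it, the last 217 bases downstream in ENSMUST00000136914. The NMD transcripts of Hnrnpd and Hnrnpa2b1 are built the same way.

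Srsf6 had the largest difference. Its NMD share was 60.5, 60.6 and 65.3% in the E10.5 libraries, 56.2, 58.3 and 56.8% in E12.5, 52.3, 55.3 and 57.9% in E14.5, 57.2, 60.1 and 59.9% in E16.5 and 33.3, 30.4 and 32.2% in whole body. Each lens library was above each whole-body library, with a difference of 30.2 ± 1.81 percentage points (SE of the points; adjusted p = 5.83e-06 on the arcsine scale) at E10.5 and of 27.1 ± 1.27 percentage points (SE of the points; adjusted p = 1.47e-05 on the arcsine scale) at E16.5. The NMD transcript itself stood at 297, 259 and 275 FPKM at E10.5, 255, 257 and 256 at E16.5 and 143, 136 and 139 in whole body. The coding transcripts together were lower than in whole body at E10.5, -0.93 ± 0.06 (SE; adjusted p = 7.79e-08), and at E16.5, -1.12 ± 0.06 (SE; adjusted p = 3.63e-09), although the gene sum was not called at either stage.

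In Srsf3 the NMD share was 39.3, 36.6 and 38.2% in the E10.5 libraries, 36.2, 36.1 and 31.2% in E12.5, 30.8, 29.1 and 26.3% in E14.5, 33.1, 37.3 and 40.4% in E16.5 and 16.8, 13.4 and 16.1% in whole body. All lens libraries lay above whole body, with a difference of 21.5 ± 2.35 percentage points (SE of the points; adjusted p = 7.03e-05 on the arcsine scale) at E16.5. The NMD transcript was at 157, 158 and 165 FPKM at E10.5 and 65.8, 49.4 and 56.9 in whole body. The coding transcript was at 127, 166 and 183 FPKM at E10.5 and 237, 211 and 216 in whole body, so at E10.5, when the gene sums were not called apart, the log2 change of coding RNA was -0.49 ± 0.12 (SE; adjusted p = 0.00509).

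Srsf1 followed, with NMD shares of 17.3, 20.8 and 16.54% in the E10.5 libraries, 10.1, 13.0 and 10.7% in E12.5, 10.6, 10.9 and 13.3% in E14.5, 9.88, 11.7 and 13.2% in E16.5 and 3.64, 3.37 and 3.97% in whole body. E10.5 was the highest group and every lens library exceeded whole body, with a difference of 14.53 ± 1.32 percentage points (SE of the points; adjusted p = 3.77e-05 on the arcsine scale) at E10.5 and 7.93 ± 0.97 percentage points (SE of the points; adjusted p = 0.00121 on the arcsine scale) at E16.5. For Srsf2 the shares were 12.4, 11.1 and 9.01% in the E10.5 libraries, 9.88, 10.2 and 6.90% in E12.5, 10.04, 12.03 and 10.1% in E14.5, 11.04, 10.4 and 11.96% in E16.5 and 5.13, 3.24 and 3.91% in whole body. All lens libraries lay above whole body, with a difference of 7.04 ± 0.71 percentage points (SE of the points; adjusted p = 0.00302 on the arcsine scale) at E16.5. Hnrnpdl, an AU-rich element binding relative of Hnrnpd, had shares of 25.4, 23.4 and 29.9% in the E10.5 libraries, 25.7, 25.7 and 28.1% in E12.5, 30.2, 34.2 and 29.2% in E14.5, 32.3, 37.8 and 34.9% in E16.5 and 12.3, 10.9 and 9.66% in whole body. Its lens libraries were all above whole body, with a difference of 24.0 ± 1.77 percentage points (SE of the points; adjusted p = 1.87e-05 on the arcsine scale) at E16.5, and most of the NMD FPKM was in ENSMUST00000149384.

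Some members went the other way or did not differ. Srsf4 had NMD shares of 38.9, 42.8 and 36.8% in the E10.5 libraries, 41.4, 43.0 and 37.0% in E12.5, 42.7, 38.0 and 45.9% in E14.5, 44.0, 38.9 and 40.7% in E16.5 and 55.3, 49.6 and 53.5% in whole body. Lens libraries were below whole body, with a difference of -11.6 ± 2.26 percentage points (SE of the points; adjusted p = 0.0196 on the arcsine scale) at E16.5. Snrpa1 had shares of 4.18, 4.86 and 13.2% in the E10.5 libraries, 2.86, 5.29 and 4.54% in E12.5, 6.29, 4.11 and 8.82% in E14.5, 4.60, 7.90 and 5.57% in E16.5 and 13.8, 16.9 and 18.9% in whole body. E10.5 replicate 3 stood apart from the other 2 and near whole body, and E16.5 was lower with a difference of -10.51 ± 1.78 percentage points (SE of the points; adjusted p = 0.016 on the arcsine scale). Hnrnpd had shares of 23.3, 24.5 and 23.1% in the E10.5 libraries, 18.0, 20.7 and 18.7% in E12.5, 21.3, 19.6 and 21.0% in E14.5, 20.8, 19.1 and 22.6% in E16.5 and 21.4, 20.1 and 19.7% in whole body. E10.5 lay just above whole body and the later stages overlapped it, with no call. Hnrnpk and Hnrnpr, at shares of at most 2.5% in any library, were called higher at E16.5 by 1.8 and 1.5 points. With single libraries left out, the count of higher shares ranged from 5 to 6 at E10.5 and at E14.5, and from 6 to 7 at E16.5. At E12.5 it ranged from 4 to 5, below the 6 of the full fit. Counts of lower shares also moved: the 2 at E16.5 became 1 without E16.5 replicate 1 or 3 or whole-body replicate 1 and 0 without whole-body replicate 3. At E14.5 the 2 lower shares became 0 without E14.5 replicate 1 or 2 or whole-body replicate 3, and 1 without whole-body replicate 1 or 2. At E12.5 the 2 became 1 without E12.5 replicate 3 or whole-body replicate 1 or 3, and at E10.5 the 3 became 1 without E10.5 replicate 2 or whole-body replicate 2 or 3.

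**Figure D4:**
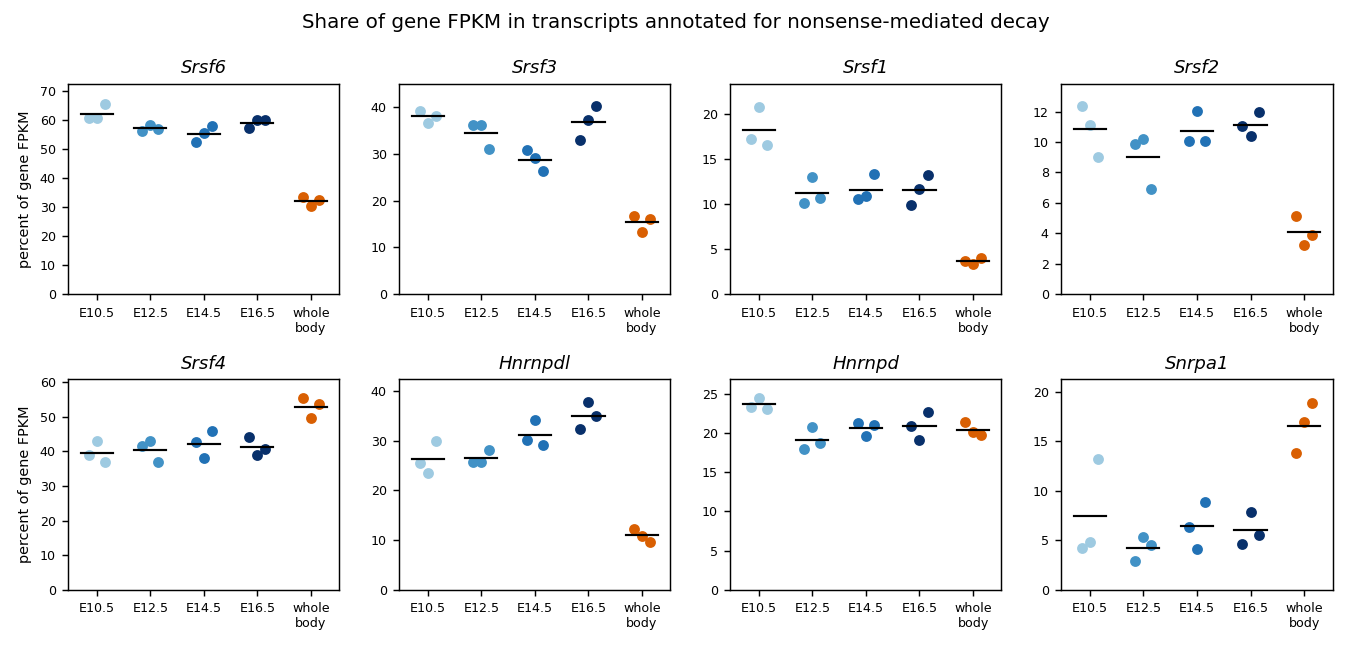
Percent of each gene's FPKM in transcripts annotated as NMD targets (y axis, from 0, scaled per panel) for 8 members in the 15 libraries (points) by group (x axis), with the group mean as a line. Srsf6, Srsf3, Srsf1, Srsf2 and Hnrnpdl lie higher in all lens libraries than in whole body, Srsf4 and Snrpa1 lower; Hnrnpd, shown for contrast, is not called.

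Against whole body, retained-intron transcripts gave fewer calls than NMD transcripts, and between lens stages more. At E16.5 against whole body 1 of 19 members had a higher and 2 a lower share (12.6% and 6.66% of 1861 genes), and at E16.5 against E10.5 3 were higher and 0 lower in limma (2.63% and 16.1%; at an unadjusted p under 0.05, 4 and 4), namely Srsf2, Srsf6 and Snrpb2. Snrpb2 was also higher at E12.5 than at E10.5 (0.591% of all genes higher, 3.82% lower). At E10.5, 3 were higher and 4 lower than whole body (22.3% and 2.58%), and at E12.5 and E14.5 1 was higher and 1 lower (6.93% and 2.63%, then 9.51% and 4.94%). The largest called difference in these shares was in Srsf5, whose retained-intron share was 20.9, 2.65 and 3.52% in the E10.5 libraries, 17.1, 21.8 and 18.2% in E12.5, 29.9, 14.2 and 22.2% in E14.5, 13.4, 18.5 and 29.0% in E16.5 and 31.7, 39.3 and 32.2% in whole body. All lens libraries lay below whole body, by 25.4 points at E10.5 (adjusted p = 0.0057 on the arcsine scale), where replicate 1 stood apart from the other 2; the later stages were not called (adjusted p from 0.154 to 0.254). Between lens stages the largest was in Srsf2, with retained-intron shares of 17.7, 9.83 and 8.15% in the E10.5 libraries, 18.4, 21.3 and 20.0% in E12.5, 27.4, 23.9 and 26.6% in E14.5, 29.3, 29.9 and 26.4% in E16.5 and 8.45, 11.7 and 9.59% in whole body. E10.5 replicate 1 stood apart from the other 2, and E12.5 and later lay above whole body. Its summed coding transcripts at E16.5 changed by -1.58 ± 0.07 (SE; adjusted p = 3.02e-10) against whole body, more than the gene sum.

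With protein-coding transcripts alone, 42 of 51 members were lower and 1 higher at E16.5 than at E10.5 (31.2% and 34.1% of 12709 genes), and 34 lower and 8 higher than whole body (38.2% and 33.5%). At E10.5, 9 were lower and 14 higher than whole body (25.1% and 17.7%). Srsf4, Snrpg and Hnrnph3, lower than whole body at E16.5 in the gene sum, were not called with coding transcripts alone, while Hnrnpk, not called in the gene sum, was higher.

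The hnRNP family had 20 genes, of which 17 fell from E10.5 to E16.5, 0 rose and 3 were not called. Against whole body at E16.5, 16 were lower, 0 higher and 4 not called, and in both comparisons limma gave 0 higher at an unadjusted p under 0.05 too. With coding transcripts alone 1 was higher than whole body, Hnrnpk. Hnrnpa1, a binder of exonic silencers that also shuttles mRNA, had the highest mean of all members at E10.5. Hnrnpa1 stood at 1395, 1519.6 and 1459 FPKM in the E10.5 libraries, 973, 865 and 832 in E12.5, 588, 605 and 670.2 in E14.5, 526, 487 and 613 in E16.5 and 1263, 1178 and 1092 in whole body. E10.5 lay above whole body, 0.31 ± 0.10 (SE; adjusted p = 0.0195), and E16.5 far below both, -1.43 ± 0.10 (SE; adjusted p = 8.98e-09) from E10.5 and -1.12 ± 0.10 (SE; adjusted p = 9.31e-08) from whole body. Many processed copies of this gene exist, so its level is uncertain.

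Hnrnpd, an AU-rich element binding protein also called AUF1, stood at 429, 489 and 463 FPKM in the E10.5 libraries, 288, 274 and 277 in E12.5, 181, 204 and 242 in E14.5, 176, 166 and 188 in E16.5 and 489, 438 and 432 in whole body. E10.5 and whole body overlapped and the later lens stages were lower, with a log2 change of -1.38 ± 0.09 (SE; adjusted p = 5.19e-09) from E10.5 to E16.5. Hnrnpab, a relative of Hnrnpd, stood at 629.7, 739.8 and 707 FPKM in the E10.5 libraries, 456, 424 and 422 in E12.5, 309.8, 340.3 and 386 in E14.5, 263, 278 and 314 in E16.5 and 835, 725 and 742 in whole body. The lens fell below whole body from E12.5 on, and its log2 change from E10.5 to E16.5 was -1.28 ± 0.10 (SE; adjusted p = 1.62e-08). Hnrnpa0, a relative of Hnrnpa1, stood at 225, 251 and 282 FPKM in the E10.5 libraries, 191, 185 and 171 in E12.5, 128, 148 and 165 in E14.5, 114, 126 and 139 in E16.5 and 416, 344 and 359.8 in whole body. Every lens library was below every whole-body library, and it had the lowest E16.5 value against whole body of any member, -1.56 ± 0.11 (SE; adjusted p = 3.90e-09).

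Hnrnpu, a nuclear scaffold protein that also binds chromatin, stood at 191, 216 and 214 FPKM in the E10.5 libraries, 206, 192 and 207 in E12.5, 162, 169 and 224 in E14.5, 125, 126 and 140.4 in E16.5 and 378, 381 and 356 in whole body. All lens libraries lay below whole body already at E10.5, -0.84 ± 0.10 (SE; adjusted p = 5.07e-06), the stages to E14.5 overlapped, and E16.5 was lower again, -0.49 ± 0.10 (SE; adjusted p = 0.00667) from E14.5. Hnrnpc, which binds uridine runs and packages nascent transcripts, stood at 423, 500.5 and 492 FPKM in the E10.5 libraries, 451, 430.5 and 428 in E12.5, 353, 352 and 409 in E14.5, 312, 349 and 337 in E16.5 and 473, 413 and 430.4 in whole body. E16.5 lay below E10.5 and whole body, with log2 changes of -0.50 ± 0.09 (SE; adjusted p = 8.40e-05) and -0.40 ± 0.09 (SE; adjusted p = 0.000553). Hnrnpa2b1 stood at 1323, 1362 and 1249 FPKM in the E10.5 libraries, 1076, 1133 and 1055 in E12.5, 948, 981 and 1183 in E14.5, 964, 958 and 996 in E16.5 and 1487, 1423 and 1333 in whole body. It was the highest member at E12.5, at E14.5 and in whole body, and fell by 0.43 on the log2 scale from E10.5 to E16.5 (adjusted p = 0.00113).

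Hnrnpk, Hnrnpr and Hnrnph2 were not called between E10.5 and E16.5. Hnrnpk, a poly(C)-binding protein, stood at 966, 1119 and 1072 FPKM in the E10.5 libraries, 1004, 1027 and 1037 in E12.5, 941, 988 and 1075 in E14.5, 939, 998 and 989 in E16.5 and 1032, 904 and 924 in whole body. Its groups overlapped except that E16.5 lay below E12.5, with -0.11 ± 0.09 (SE; adjusted p = 0.3) from E10.5, and it was the highest member at E16.5. Its coding transcripts alone summed to 715 to 784 FPKM at E16.5 and 562 to 633 in whole body. They were called higher than whole body at E10.5, 0.44 ± 0.07 (SE; adjusted p = 0.000186), at E12.5 and E14.5 (0.40 each), and at E16.5, 0.33 ± 0.07 (SE; adjusted p = 0.00072). Transcripts with an unannotated junction stood at 133 to 179 FPKM at E16.5 and 211 to 279 in whole body. Retained-intron transcripts likewise stood at 47.1 to 56.3 and 88.4 to 117. NMD transcripts went the other way, at 17.6 to 22.25 and 2.06 to 3.47. The Hnrnpk gene sum at E16.5 against whole body turned to -0.49 with crystallins left out and -1.30 with quantile normalization. Coding transcripts alone were not fitted under either. Hnrnpr stood at 193, 197 and 189.9 FPKM in the E10.5 libraries, 183, 169.8 and 198 in E12.5, 172, 187 and 195 in E14.5, 181, 179.8 and 187 in E16.5 and 225, 206 and 203 in whole body. E16.5 was a little below E10.5 in all libraries, -0.08 ± 0.07 (SE; adjusted p = 0.274), and below whole body, -0.21 ± 0.07 (SE; adjusted p = 0.0102). Hnrnph2, the X-linked relative of Hnrnph1, stood at 107, 126 and 129 FPKM in the E10.5 libraries, 114, 124 and 139 in E12.5, 119, 142 and 141 in E14.5, 123, 125 and 129 in E16.5 and 135, 123 and 115 in whole body. Its groups overlapped, with 0.06 ± 0.09 (SE; adjusted p = 0.554) from E10.5, whereas Hnrnph1 fell by 0.81 on the log2 scale (adjusted p = 2.74e-07).

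The missing calls for these 3 and for Sf3b1, Sf3b2, Snrpa, Snrpd2, Srsf5 and Srsf6 depend on scaling. With crystallins left out, each of these 9 and Sf3b5 was called lower at E16.5 than at E10.5. The median log2 change of all genes was then -0.39, and of all genes called 30.6% were higher, in place of 50.3% as deposited. The percent of all genes tested that was lower under that scaling is not given here. The other 10 hnRNP genes ran from 42.6 to 989.9 FPKM and all 10 fell from E10.5 to E16.5, with log2 changes of -1.05 to -0.33, and 8 were lower than whole body. Hnrnpa3 and Hnrnpll, which resemble Hnrnpa1 and Hnrnpl, fell by 1.05 and 0.93 on the log2 scale, while Hnrnpl fell by 0.33.

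Other splicing genes were counted by function. Over all genes tested 36.7% were lower and 37.2% higher at E16.5 than at E10.5, and 43.4% lower and 36.8% higher than whole body. Among other snRNP proteins 19 of 32 (59.4%) fell from E10.5 to E16.5 and 6 rose, with Lsm2 falling by 1.72 and Lsm5 by 1.65 on the log2 scale and Lsm4 and Snrnp35 rising by 0.81 and 0.99. Against whole body 18 were lower (56.2%) and 7 higher. For splice site recognition and the catalytic steps 22 of 34 (64.7%) fell and 4 rose, with log2 changes from -1.08 (Ddx39b) to 0.54 (Puf60), and 15 were lower (44.1%, near the share of all genes) and 7 higher than whole body. The spliceosomal protein Cwc22 was lowest there, with means of 38.1 FPKM at E16.5 and 141 in whole body.

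The machinery that builds snRNPs fell in 10 of 17 genes (58.8%) and rose in 3, from -1.30 (Gemin6) to 1.30 (Gemin8); against whole body 10 were lower and 3 higher. Exon junction and SR-related genes fell in 13 of 15 (86.7%) and rose in 2, Son and Sap18, and 9 were lower (60%) and 3 higher than whole body, among them Tra2b at -1.19. SR protein kinases and the importer Tnpo3 were even: 3 of 9 fell (33.3%) and 3 rose from E10.5, and 5 were higher (55.6%) and 1 lower than whole body. Among them Srpk1 fell by 0.68 and Srpk2 rose by 0.51 on the log2 scale.

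Tissue-restricted regulators had the widest range. Of 35, 18 fell (51.4%) from E10.5 to E16.5 and 9 rose, and against whole body 27 were lower (77.1%) and 4 higher. Esrp1, an epithelial splicing regulator, went from a mean of 53.2 FPKM at E10.5 to 0.107 at E16.5, and the neuronal gene Elavl3 was at 0.347 FPKM against 89.0 in whole body. In contrast Rbm24, a regulator known from muscle and lens, went from 27.2 to 550 FPKM, with 10.3 in whole body, and Celf1 from 330.0 to 1293, with 273 in whole body. At E16.5 Celf1 thus exceeded every splicing factor of the 51 in mean FPKM.

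The promoters of the members were compared by sequence, 250 bases before to 50 after the start, from RefSeq on GRCm38.p6; 45 of 51 members had an entry. Motifs were searched on both strands. In this paragraph all genes means the 27025 genes with an entry, whether or not they were expressed in these data. Genes expressed at levels like those of the members were not compared separately. The GC box GGGCGG was in 71.1% of these genes and 38.2% of all genes, the ETS site CCGGAAGT in 20% and 4.31%, CCAAT in 51.1% and 41.1%, and the E box CACGTG in 13.3% and 8.09%. Sites for NRF1 and YY1 were each in 1 member gene, and in 1.07% and 0.995% of all genes. The E box and NRF1 motifs read the same on both strands. A match describes letters only.

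The 250 bases before the start are given for the gene that rose, the one that fell most and the SR gene held above whole body, with motif matches in capitals. The starts are from RefSeq and differ from the ends of the GENCODE gene spans given above for Snrpn and Snrpg. The Snrpn window lies far inside its span, and most of the Snrpg window lies inside its span.
Snrpn, chr7:60005200-60005449, minus strand: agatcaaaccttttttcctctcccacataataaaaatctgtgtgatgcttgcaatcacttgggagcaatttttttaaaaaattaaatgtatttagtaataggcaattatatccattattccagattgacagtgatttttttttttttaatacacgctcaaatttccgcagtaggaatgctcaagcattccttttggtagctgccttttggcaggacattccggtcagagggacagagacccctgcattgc
Snrpg, chr6:86371290-86371539, plus strand: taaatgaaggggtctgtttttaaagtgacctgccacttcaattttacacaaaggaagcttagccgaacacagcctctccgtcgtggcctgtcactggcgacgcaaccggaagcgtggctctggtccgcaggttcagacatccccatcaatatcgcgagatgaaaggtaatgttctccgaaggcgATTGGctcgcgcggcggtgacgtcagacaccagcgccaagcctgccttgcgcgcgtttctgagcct
Srsf5, chr12:80945249-80945498, plus strand: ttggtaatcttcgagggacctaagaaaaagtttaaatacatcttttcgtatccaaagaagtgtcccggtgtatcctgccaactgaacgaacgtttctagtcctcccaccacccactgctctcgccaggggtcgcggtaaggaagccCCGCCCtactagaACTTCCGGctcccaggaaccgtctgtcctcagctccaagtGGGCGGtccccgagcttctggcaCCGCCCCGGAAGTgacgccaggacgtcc

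These 3 windows differ in composition. The Snrpn window held none of the 6 motifs, 36.8% G and C and 3 CG dinucleotides. That of Snrpg held 1 CCAAT match on the minus strand, 55.6% G and C and 21 CG dinucleotides. In Srsf5 3 GC boxes and 2 ETS sites were found, 1 of each overlapping, with 56.8% G and C and 17 CG dinucleotides.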

How the data were processed

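RNA was sequenced from lenses at 4 stages and from whole embryos, 3 libraries each. Per the submitters' processing notes, the authors used Trimmomatic, TopHat2 2.0.9, Cufflinks and Cuffnorm on mm10 and deposited FPKM per assembled transcript. Depth, strandedness, the normalization setting and the handling of multi-mapping reads are not given in the sources used here. The 15 libraries are independent samples only as far as the labels say. The p-values set a difference between groups against the spread between these libraries within groups.

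Transcripts were summed per symbol, leaving out antisense (class x) transcripts. Genes needed 1 FPKM in 3 libraries, which removed 80, and 3 genes were left out because a library listed them at 0 although a replicate exceeded 50 FPKM. limma 3.58.1 (R 4.3.3) was fitted to log2(FPKM + 1) with 1 mean per group over all 15 libraries, variance trend and Benjamini-Hochberg adjustment over 14532 genes, and was tested on simulated data. SE are from that fit.

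Members and gene lists were chosen with earlier results of these data known. In each family the 3 highest and 3 lowest log2 changes for E16.5 against E10.5, the 2 highest and 2 lowest against whole body, and 14 fixed genes got every library's value, 33 members in all; the others are given by range. Of other lists up to 2 called genes per end were named. The replicate numbers were not treated as pairs, since the labels tie them to no shared source. Transcript class shares (NMD, retained intron) and the coding-only fit were added after the values were seen. A share is the percent of a gene's FPKM in annotated transcripts of that class, tested by limma on its arcsine square root where the gene averaged 10 FPKM or more and the share 1% or more. SE of points come from the libraries of the compared groups.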

Additional observations from a re-analysis of the deposited data

Results flagged for a closer look

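For 6 members the lens lay on opposite sides of whole body at E10.5 and E16.5, with both differences and the change between the 2 stages called by limma. How many of all genes meet this rule was not counted, so the 6 cannot be set against a share of all genes. The 2 comparisons share the whole-body libraries, so the change between stages is the test of the difference. Higher at E10.5 and lower at E16.5 were Hnrnpa1 (0.31, then -1.12, a change of -1.43), Sf3a3 (0.19, -0.54 and -0.73), Snrpb (0.30, -0.63 and -0.93), Snrpg (1.27, -0.71 and -1.98) and Srsf4 (0.32, -0.21 and -0.53), all on the log2 scale. Snrpn was lower at E10.5 and higher at E16.5 (-0.29, 1.58 and 1.87). Adjusted p for the changes ran from 6.81e-10 (Snrpn) to 6.82e-05 (Srsf4). With coding transcripts alone, 2 of these members were not called by limma against whole body at E16.5. They were Srsf4 (-0.073, adjusted p = 0.589) and Snrpg (-0.33, adjusted p = 0.138). The E16.5 call of Srsf4 was also lost in most fits without 1 library, as given above.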

How the results depend on the processing

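Unknown depth and 3 libraries a group limit precision, and FPKM of transcripts rest on the authors' isoform estimates. The cause of the changes below was not tested. A pseudocount of 0.1 and no filter moved no count by over 1.5 times and reversed no named member.

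With quantile normalization 18 members were lower at E10.5 than in whole body and 2 higher at E16.5; from E10.5 to E12.5 1 was higher, from E12.5 to E14.5 41 were lower, and from E14.5 to E16.5 13. Log2 changes that reversed were, at E16.5 against whole body, Hnrnph2 -0.35, Hnrnpk -1.30, Sf3b2 -0.76 and Snrpa -0.19, and against E10.5, Hnrnph2 -0.30, Sf3b2 -0.52, Sf3b5 -0.0076 and Srsf5 -0.57. With crystallins left out 3, 2 and 1 members were higher than whole body at E12.5, E14.5 and E16.5; 1 was higher at E12.5 than E10.5, 43 lower at E14.5 than E12.5 and 17 lower at E16.5 than E14.5. Reversed against whole body were Hnrnph2 -0.51, Hnrnpk -0.49, Sf3b2 -0.45, Sf3b4 -0.31, Snrpa -0.42, Snrpd2 -0.17 and Snrpf -0.25, and against E10.5 Hnrnph2 -0.41, Sf3b2 -0.43, Sf3b5 -0.29 and Srsf5 -0.46. The share of higher calls over all genes went from 45.9% to 28.0% (against whole body) and from 50.3% to 30.6% (against E10.5) with crystallins left out, and at E10.5 against whole body from 44.1% to 54.1% with quantile normalization. At E14.5 against E12.5 that share went from 48.7% to 21.5% with crystallins left out.

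With reference transcripts only, or coding transcripts only, 0 members were higher and 4 lower at E16.5 than E14.5 in limma (coding: 0 and 21 at an unadjusted p under 0.05), Sf3b3 against whole body was 0.24, and Srsf5 against E10.5 was -0.023 and -0.35. Without the variance trend 1 was higher at E12.5 than E10.5 and 4 lower at E16.5 than E14.5. Fitting the compared groups alone gave 1 higher at E12.5 than E10.5, 9 lower at E14.5 than E12.5, and 0 higher and 2 lower at E16.5 than E14.5, and 1 lower decay share at E14.5. On the logit scale 1 decay share was lower at E12.5 and 1 at E14.5. With E10.5 replicate 2 alone 4 were lower than whole body, 1 higher at E12.5 than E10.5 and 2 higher at E16.5 than E10.5, with Sf3b2 at -0.045 and Srsf6 at 0.0202.

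With the replicate number as a replicate block, 1 member was higher at E12.5 than E10.5, 1 decay share was lower at E14.5, and Srsf4 against whole body had an adjusted p of 0.0532. The labels do not say whether equal numbers share a litter, day or batch; same-number deviations correlated at -0.0946 to 0.237 over 30 pairs, 4 over 0.1, and 5 of 15 libraries correlated best with their own number.

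Leaving out single libraries gave, higher then lower, 9 to 14 and 5 to 7 at E10.5, 7 to 9 and 24 to 31 at E12.5, 6 to 8 and 30 to 34 at E14.5, and 4 to 6 and 34 to 36 at E16.5 against whole body. Between stages it gave 1 to 2 and 28 to 32 (E12.5 against E10.5), 1 and 8 to 23 (E14.5 against E12.5), 1 and 2 to 10 (E16.5 against E14.5), 1 to 2 and 40 (E16.5 against E10.5), and 39 to 43 by the F test. Decay shares were higher in 5 to 6, 4 to 5, 5 to 6 and 6 to 7 members and lower in 1 to 3, 1 to 2, 0 to 2 and 0 to 2 at the 4 stages, and 0 either way at E16.5 against E10.5. Log2 changes that crossed 0 ranged, against E10.5, from -0.018 to 0.12 (Hnrnph2), -0.018 to 0.095 (Sf3b2), -0.12 to 0.0505 (Snrpd2), -0.0604 to 0.15 (Srsf5) and -0.0806 to 0.0303 (Srsf6), and against whole body from -0.037 to 0.077 (Hnrnph2), -0.0017 to 0.094 (Hnrnpk) and -0.029 to 0.0071 (Srsf6).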
